A study of Mus musculus with 6 samples.

Results

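The genes described here are regeneration effectors, a set of 8 genes known from injured sensory neurons: Sprr1a (ENSMUSG00000050359), Ecel1 (ENSMUSG00000026247), Gadd45a (ENSMUSG00000036390), Csf1 (ENSMUSG00000014599), Cdkn1a (ENSMUSG00000023067), Arg1 (ENSMUSG00000019987), Bdnf (ENSMUSG00000048482) and Socs3 (ENSMUSG00000053113). They were chosen by name, through 8 Ensembl gene identifiers, and 7 of the 16976 identifiers in the count table belong to them. The eighth, that of Arg1 (arginase 1, an enzyme that feeds polyamine synthesis), had no value to read and was not measured here. The symbols are those given with the choice of genes, since the table pairs no identifier with a name.

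The RNA came from dorsal root ganglia (DRG), which hold the cell bodies of sensory neurons together with their glia, of wild-type mice whose sciatic nerve had been injured, and of wild-type mice that were not injured. Ganglion lysate was precipitated with an antibody against LARP1, an RNA-binding protein that also regulates the translation of many mRNAs, and the co-precipitated RNA was read as amplified cDNA on a nanopore. Each of the 2 groups, injured and uninjured, has 3 libraries. The labels used here do not give the time after injury, the age, sex or number of the mice, the ganglia taken or any pooling. Neither input RNA nor a control precipitate was analysed here, so a level below is the amount of an RNA in the LARP1 precipitate, and a change of it can lie in the tissue or in the binding. In a whole ganglion, fewer cells of a type and less RNA per cell cannot be told apart either. The markers of neurons and of other ganglion cells could not be checked, because only the 8 identifiers came with names.

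When the peripheral axon of a sensory neuron is cut, a programme of injury-induced genes starts in its cell body. Transcription factors such as ATF3, JUN and STAT3 are known to take part in it. The effectors described here act at different steps. Sprr1a and Ecel1 are tied to axon growth, Gadd45a and Cdkn1a belong to the response to stress and DNA damage, Csf1 and Bdnf are secreted signals to other cells, and Socs3 is a brake on cytokine signalling.

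The injured libraries held 211337 to 211879 counts each, 634615 in all, and the uninjured libraries held 116186 to 116608, 349027 in all. Within a group, the 3 libraries were nearly as alike as repeated counts of 1 pool of reads. Their spread amounted to 1.12 times the variance of counting over 6152 genes in the injured group and 1.16 times over 3827 genes in the uninjured group. Each group was therefore counted as 1 sample, its counts were summed, and the differences below have no replicate check. Levels are CPM, a gene's counts in every 1000000 counts of the group (or, for a single library, of that library). The 95% intervals are exact for independent counts and cover counting error only, not the spread between animals or preparations. PCR reads without molecular identifiers are not independent molecules, so the intervals can be too narrow even for counting error. Group and any batch of preparation or sequencing cannot be told apart.

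The promoters of the 7 measured genes are given first, because transcription factors of the injury programme are known to bind short motifs upstream of their targets. RefSeq windows (build GRCm38.p6) matched all 7 symbols, with 14 annotated starts in all, of which 7 belong to Bdnf and 2 to Cdkn1a. The build differs from the GRCm39 named for the counts, and no coordinate was carried over. Each window runs from 250 bases before the start to 20 bases after it. It was searched on both strands for the AP-1 site TGANTCA, to which JUN and ATF3 dimers bind, for the cyclic AMP response element TGACGTCA, for the STAT site TTCNNNGAA, and for the p53 response element, a pair of consensus half-sites with a spacer of at most 13 bases. No matches overlapped in the windows of these genes. The following 3 windows are examples. The first is that of Sprr1a, which had matches and is 1 of 3 measured genes without any uninjured count. Ecel1, another of the 3, had no match. Of all genes with a count, 19.6% had no uninjured count. The next is that of the p53 target gene Cdkn1a at its first annotated start, which had a match, while its second start had none. The last is that of Gadd45a, the gene with the most injured counts, which had no match. Letters in capitals mark a match to 1 of the 4 motifs, and the sequences read 5′ to 3′ along the gene.
Sprr1a, chr3:92485862-92486131, minus strand: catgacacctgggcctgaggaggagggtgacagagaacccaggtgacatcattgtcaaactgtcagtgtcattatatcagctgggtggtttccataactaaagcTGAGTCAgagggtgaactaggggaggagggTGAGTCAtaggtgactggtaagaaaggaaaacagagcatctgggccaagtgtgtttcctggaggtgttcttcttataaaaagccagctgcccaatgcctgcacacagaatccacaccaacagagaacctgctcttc
Cdkn1a, chr17:29090729-29090998, plus strand: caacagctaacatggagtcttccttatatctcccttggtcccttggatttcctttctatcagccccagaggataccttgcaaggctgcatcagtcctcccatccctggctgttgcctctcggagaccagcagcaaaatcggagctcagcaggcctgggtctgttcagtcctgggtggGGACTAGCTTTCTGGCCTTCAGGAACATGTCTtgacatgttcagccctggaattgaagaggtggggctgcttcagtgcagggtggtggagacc
Gadd45a, chr6:67037388-67037657, minus strand: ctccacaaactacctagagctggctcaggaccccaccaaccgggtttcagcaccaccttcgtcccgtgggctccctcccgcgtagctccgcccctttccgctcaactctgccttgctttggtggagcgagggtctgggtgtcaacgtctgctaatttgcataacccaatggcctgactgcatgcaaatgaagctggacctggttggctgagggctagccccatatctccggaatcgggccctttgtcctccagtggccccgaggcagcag

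The Sprr1a window held 2 AP-1 matches, both TGAGTCA, at -146 to -140 and at -116 to -110 relative to the start. Of all 32851 mouse windows of this length, 7.23% held at least 1 AP-1 match. The first Cdkn1a window held the p53 pair from -73 to -42, and 0.067% of all windows (22) held such a pair. The windows of Ecel1, Gadd45a, Csf1 and the second start of Cdkn1a had no match to the 4 motifs. A STAT match lay in the Socs3 window at -154 to -146 and in the first Bdnf window at -122 to -114, against 7.58% of all windows. The second Bdnf window held an AP-1 match, and the remaining 5 Bdnf windows had none. No window of these genes held the cyclic AMP response element, found in 1.73% of all windows.

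**Figure D1:**
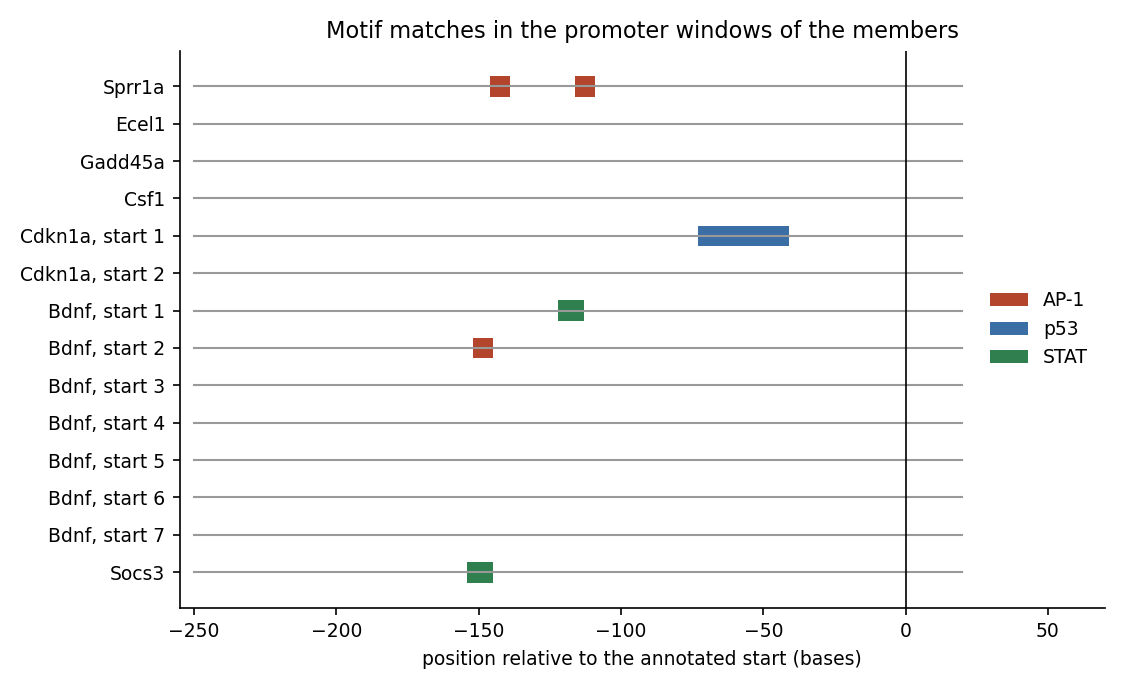
Positions of motif matches (coloured boxes) in the promoter windows of the 7 measured genes, 1 line per annotated start, with the distance from the start in bases on the horizontal axis. The Sprr1a window holds 2 AP-1 matches, the first Cdkn1a window the p53 pair, and the lines without a box have no match.

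LARP1 is known for binding mRNAs that begin with a terminal oligopyrimidine tract. None of the 14 annotated starts began with a C followed by 4 pyrimidines, a form held by 2.51% of the 32851 starts. With a share that low, none among 14 starts, 7 of them of Bdnf, does not set these genes apart. The annotated start may differ from the one used in the ganglion, which the counts per gene do not show.

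In the comparison of injured with uninjured ganglia, 5 of the 7 measured genes were higher in the injured precipitate. These were Sprr1a, Ecel1, Gadd45a, Csf1 and Cdkn1a. In all 5, every injured library lay above every uninjured library, a pattern shown by 24.2% of the 13236 genes with a count. Likewise in all 5 the 95% interval of the ratio of injured to uninjured CPM lay above 1, as for 16.9% of those genes. Both shares include genes with very few counts. Only 4325 genes had at least 25 injured counts, the number of Ecel1 and the lowest of the 5. The shares among genes of like depth were not computed. The libraries of Bdnf overlapped between the groups, and Socs3 was barely counted. Summed over the 7 genes, the precipitate held 838 CPM in the injured group (765 to 890 CPM in its libraries), against 123 CPM in the uninjured group (94.6 to 138 CPM). Gadd45a and Cdkn1a made up most of both sums. Without them, the remaining 5 genes summed to 312 CPM in the injured group (308 to 317 CPM), against 45.8 CPM in the uninjured group (25.8 to 77.5 CPM).

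**Figure D2:**
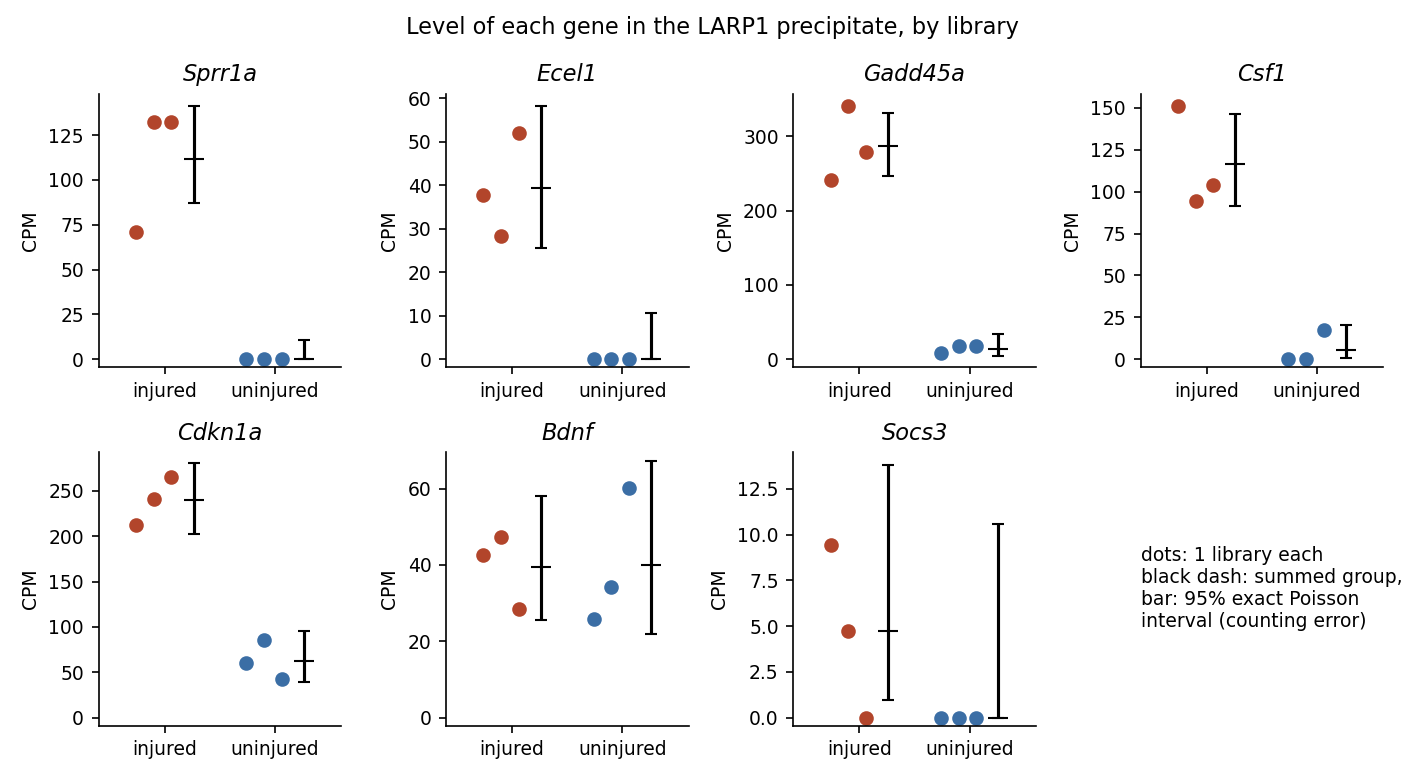
Level in CPM (vertical axes, each gene on its own scale) of the 7 measured genes in the injured and uninjured libraries, with 1 dot per library and the summed group with its 95% exact Poisson interval beside them. The dots of Sprr1a, Ecel1, Gadd45a, Csf1 and Cdkn1a do not overlap between groups, those of Bdnf do, and Socs3 is at 0 in 4 of 6 libraries.

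Sprr1a encodes a small proline-rich protein of the cornified envelope of skin, and in injured sensory neurons it is known to promote axon outgrowth. It was counted 15, 28 and 28 times in the injured libraries (70.8, 132 and 132 CPM), against 0 counts in each of the 3 uninjured libraries. The groups do not overlap, and the first injured library was the lowest of its group. The summed injured level was 112 CPM (95% exact Poisson interval 87.4 to 141). With 0 of 349027 uninjured counts, the exact interval reached 10.6 CPM. As a floor, the uninjured level was set to 3 counts over the group, 8.60 CPM. Against that floor Sprr1a was 13.02-fold higher in the injured precipitate, which is not a lower limit. The lower end of the exact 95% interval of the ratio, which counts the error of both groups, was 10.3. Leaving out any 1 of the uninjured libraries brought the ratio against the floor to 8.67 or 8.68, because 3 counts weigh more in a smaller total. Of the 1733 genes with at least 71 injured counts, 14 including Sprr1a had no uninjured count.

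Ecel1, also called DINE, is a membrane protein of the neprilysin family of metallopeptidases, known to be induced in injured neurons. It was counted 8, 6 and 11 times in the injured libraries (37.8, 28.4 and 52.0 CPM), against 0 counts in each uninjured library. As with Sprr1a, every injured library had reads of it and no uninjured library did, but the counts were fewer. The summed injured level was 39.4 CPM (25.5 to 58.2), 4.58-fold above the uninjured floor of 8.60 CPM, and the interval of the ratio began at 3.46. Without any 1 of the uninjured libraries the ratio against the floor was 3.05 or 3.06. Of the 4325 genes with at least 25 injured counts, 76 had no uninjured count. For either gene, an uninjured level near or below the floor could have been missed at this depth.

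Gadd45a encodes a small nuclear protein, induced by DNA damage and other stress, that takes part in growth arrest and MAP kinase signalling. It was counted 51, 72 and 59 times in the injured libraries (241, 341 and 279 CPM), against 1, 2 and 2 counts in the uninjured libraries, or 8.60, 17.2 and 17.2 CPM. The lowest injured library was far above the highest uninjured one. The summed levels were 287 CPM (247 to 332) in the injured group and 14.3 CPM (4.65 to 33.4) in the uninjured group, a ratio of 20.02 (95% exact interval 8.42 to 62.4). Of the 641 genes with at least 182 injured counts, 3 including Gadd45a had at most 5 uninjured counts. Here, as for Sprr1a and Ecel1, the cut-offs are the gene's own counts, so such numbers only describe the gene. Formed in the same way, they were 18 of 781 genes for Cdkn1a, 18 of 1649 for Csf1 and 1167 of 4325 for Bdnf.

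Cdkn1a encodes p21, an inhibitor of cyclin-dependent kinases and a target of p53, which like Gadd45a belongs to the growth-arrest response. It was counted 45, 51 and 56 times in the injured libraries (212, 241 and 265 CPM), against 7, 10 and 5 counts in the uninjured libraries, or 60.2, 85.8 and 43.0 CPM. Unlike the genes above, it was plainly present without injury. The summed levels were 239.5 CPM (203 to 281) and 63.0 CPM (39.5 to 95.4) in the injured and the uninjured group, a ratio of 3.80 (2.42 to 6.24). Its interval lies wholly below that of Gadd45a, the other growth-arrest gene, and the difference between the ratios was not tested.

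Csf1 encodes the secreted ligand of the CSF1 receptor, through which macrophages and microglia are maintained, and injured sensory neurons are a known source of it. It was counted 32, 20 and 22 times in the injured libraries (151, 94.6 and 104 CPM), against 0, 0 and 2 counts in the uninjured libraries, or 0, 0 and 17.2 CPM. The injured libraries were all above the single uninjured library with reads, and the first injured library was the highest of its group. The summed levels were 117 CPM (91.6 to 146) in the injured group and 5.73 CPM (0.694 to 20.7) in the uninjured group, a ratio of 20.3 (5.44 to 171). Its wide interval reflects the 2 uninjured counts, both in the third library. Without that library the uninjured group had no count, and Csf1 was 9.05-fold higher against the floor of 3 counts over the remaining 2 libraries.

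Bdnf encodes brain-derived neurotrophic factor, the ligand of the TrkB receptor, which sensory neurons make and release. It was counted 9, 10 and 6 times in the injured libraries (42.5, 47.3 and 28.4 CPM), against 3, 4 and 7 counts in the uninjured libraries, or 25.8, 34.3 and 60.2 CPM. The groups overlap, and the highest and the lowest library are both uninjured. The summed levels were 39.4 CPM (25.5 to 58.2) in the injured group and 40.1 CPM (21.9 to 67.3) in the uninjured group. The ratio of 0.982 has an interval of 0.491 to 2.04, so a change within those limits in either direction was not detectable at this depth. Of the counts of Bdnf, 64.1% were injured, against 64.5% of the counts of all genes. Ecel1 and Bdnf each had 25 injured counts, while Ecel1 had 0 uninjured counts and Bdnf had 14.

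Socs3 encodes an inhibitor of JAK and STAT3 signalling downstream of gp130 cytokine receptors, known to restrain axon regeneration. It was counted 2, 1 and 0 times in the injured libraries and 0 times in each uninjured library. Both groups lie at or under the floor of 3 counts, which corresponds to 4.73 CPM in the injured and 8.60 CPM in the uninjured group, so no ratio is given and a difference was not detectable at this depth.

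**Figure D3:**
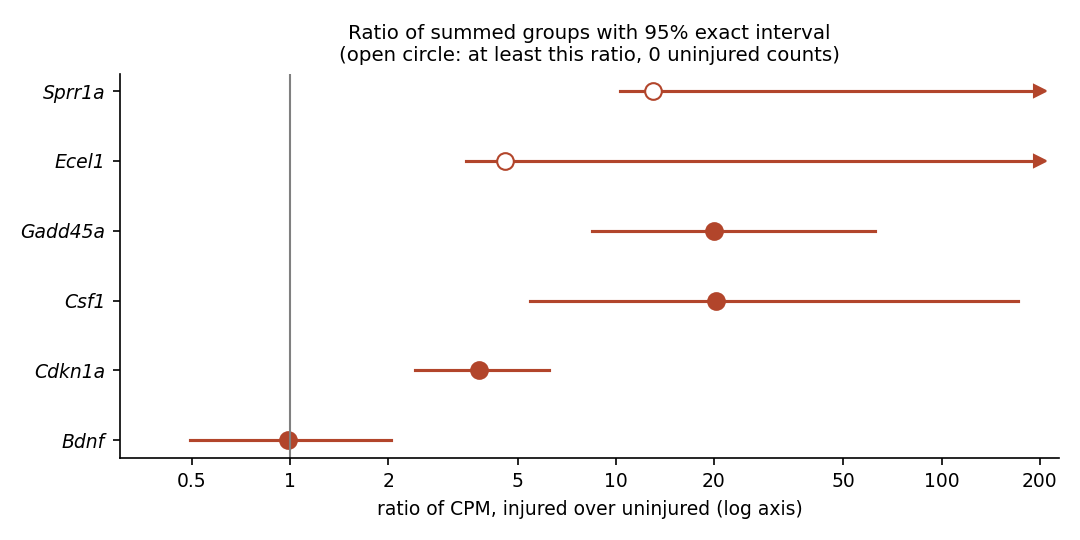
Ratio of injured to uninjured CPM (horizontal log axis) for the 6 genes with a ratio, with the 95% exact interval as a line. Open circles, titled at least this ratio, mark ratios against the floor of 3 counts for genes with 0 uninjured counts. They are not lower limits, as the intervals of these genes begin below them. Those intervals have no upper limit and end in an arrow at the edge of the plot. The interval of Bdnf spans 1, and those of the other 5 genes lie above it.

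Ordered by ratio, Csf1 (20.3) and Gadd45a (20.02) came first, followed by Cdkn1a (3.80) and Bdnf (0.982). Csf1 and Gadd45a cannot be ordered, since the interval of each contains the ratio of the other, and the interval of Csf1 also overlaps that of Cdkn1a. Sprr1a (13.02 against the floor) and Ecel1 (4.58 against the floor) have no upper limit and no place in this order. The interval of Cdkn1a lies above that of Bdnf.

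Counts at this depth restrict what a test across all genes can cover. The filter on low counts, about 61.0 CPM in 3 libraries, kept 3158 genes, among them Sprr1a, Gadd45a, Csf1 and Cdkn1a but not Ecel1, Bdnf or Socs3. All 4 passed through their injured libraries, as at most 1 uninjured library of any of them reached that level, so their calls are not independent of the filter. In edgeR's quasi-likelihood test, with a Benjamini-Hochberg threshold of 0.05, all 4 were called higher in the injured reads, as were 24.9% of the 3158 genes tested. None was called lower, which only follows from all 4 being called higher. Of all genes tested, 22.1% were called lower. No lower difference among these genes had an unadjusted p under 0.05 in edgeR or in DESeq2. The test compares the reads of 2 samples and not the conditions. Sprr1a fell below the filter without the second or the third injured library and was then not tested. Without a filter, and with DESeq2, Ecel1 was called higher as well, and Bdnf and Socs3 were not called.

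The ranks that follow only describe these counts, because Csf1, Gadd45a, Sprr1a and Cdkn1a were among the genes tested through their injured libraries. Among the 3158 genes tested, the ratio of CPM ranked 19th for Csf1, 21st for Gadd45a, 39th for Sprr1a with its uninjured level set to the floor, and 194th for Cdkn1a. A ratio as large as that of Csf1 was reached by 0.602% of these genes, as large as that of Gadd45a by 0.665%, and as large as that of Cdkn1a by 6.14%. For Sprr1a the share was 1.27% and for Ecel1, itself not tested, 4.65%, both with the floor in place of 0. With Sprr1a and Ecel1, its middle values, set against the floor, the median log2 ratio was 2.95 over the 6 genes with a ratio. It was 0.08 over all genes tested, which include neither Ecel1 nor Bdnf. TMM scaling would lower every log2 ratio by the same amount, a shift of -0.11.

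**Figure D4:**
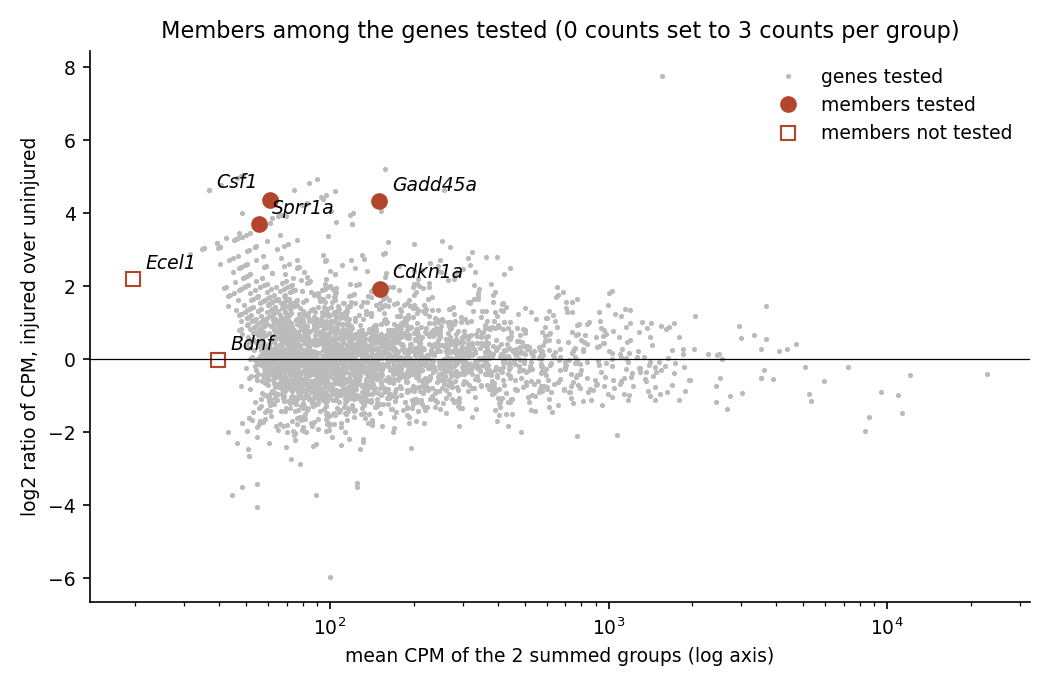
Log2 ratio of injured to uninjured CPM (vertical axis) against the mean CPM of the summed groups (horizontal log axis) for the 3158 genes tested (grey) and the 6 genes with a ratio (filled circles tested, open squares not tested), with 3 counts per group in place of 0. Csf1, Gadd45a and Sprr1a (against the floor) sit at log2 ratios of 4.35, 4.32 and 3.70, above most but not all genes tested. Cdkn1a sits at 1.93 and Bdnf at -0.03.

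The genes most like Gadd45a, which had the highest injured CPM of the 7, were taken as the 2 tested genes at the smallest Euclidean distance in log2(CPM + 1) over the 6 libraries. ENSMUSG00000044734, at a distance of 0.688, had 63, 60 and 60 counts in the injured libraries, against 1, 3 and 2 in the uninjured libraries, a ratio of CPM of 16.8 (7.56 to 46.3). ENSMUSG00000004951, at a distance of 1.52, had 48, 32 and 34 counts in the injured libraries, against 1, 2 and 3 in the uninjured libraries, a ratio of 10.4 (4.66 to 29.1). Their likeness to Gadd45a in level and ratio follows from how they were picked. The files pair neither identifier with a name.

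An exact multinomial test set a gene's counts in the libraries of a group against the library totals. It was made for the 7 combinations of gene and group with at least 15 counts, which leave out Socs3 and all uninjured counts but those of Cdkn1a. The lowest p was 0.0826, for Sprr1a in the injured group (15, 28 and 28 counts), and 0.467 after Benjamini-Hochberg adjustment over the 7 exact tests. The next lowest was 0.153, for Gadd45a in the injured group.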

How the data were processed

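The authors deposited estimated counts for each Ensembl identifier, without normalization. The submitters' processing notes name minimap2, Salmon and the build GRCm39 (mm39), but their roles, versions, annotation and filters are not stated there. All values were whole, so rounding changed none; 0 rows named no gene and 0 columns were left unused. Salmon shares reads among similar transcripts, so counts of overlapping genes are uncertain.

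Groups and replicate numbers come from the titles, and columns were matched by library name. Counts of a group were summed. Levels have 95% exact Poisson intervals and ratios 95% exact Clopper-Pearson intervals; a group with 0 counts was set to 3 counts over the group. edgeR 4.0.16 (R 4.3.3; TMM, filterByExpr) was run on all 6 libraries and tested on simulated data. Alternatives were DESeq2 1.42.0, other size factors, scalings and filters, the replicate block, thinning of injured libraries to 116186 counts, and leaving out each library.

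The genes and lists were chosen with earlier results of these data known. All 7 measured genes are named, with the 2 tested genes nearest to the one with the highest injured level. Related pathway and cell type lists were not analysed here, as they need names for the identifiers. Promoter sequences are RefSeq's.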

Additional observations from a re-analysis of the deposited data

How the results depend on the processing

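The 4 genes called higher kept direction and call in every one of the 13 alternative fits that tested them (49 values), which says little of stability, since they passed the filter through their injured libraries and fits in which they did not pass are not counted. Sprr1a fell under the filter without the second or the third injured library, and Csf1 with the injured libraries thinned, which left 3 calls in each of those settings. DESeq2, and edgeR without a filter, made 5. Over all genes, 575 to 948 were called higher and 527 to 756 lower, and the replicate block gave 750 and 677, with the same 4 of the genes described called. Libraries with the same number deviated from their group means with correlations of 0.0389, -0.00625 and -0.0506 over 2976 genes. These values cannot tell whether such libraries were paired, because the spread within a group was nearly that of counting alone. Leaving out 1 library moved the ratio against the floor to 8.67 to 15.4 for Sprr1a and to 3.05 to 5.22 for Ecel1. The low ends come from leaving out an uninjured library, where 3 counts weigh more in a smaller total. The same settings gave ratios of 16.7 to 22.3 for Gadd45a, 3.28 to 4.64 for Cdkn1a and 0.834 to 1.31 for Bdnf. Those of Csf1 were 9.05 to 22.3, the lowest again against the floor. Under TMM scaling, upper-quartile scaling and thinning, every ratio stayed within its counting interval. Depth limits Ecel1, Bdnf and Socs3 most, with 25, 39 and 3 counts over both groups. The alternatives for pathway and cell type lists were not run.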
